A study of Rattus norvegicus with 6 samples.

Results

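The secreted modulators of Wnt signalling described here are 10 genes, Rspo1, Rspo2, Rspo3, Sfrp1, Sfrp2, Sfrp4, Frzb, Wif1, Dkk2 and Dkk3, chosen by their symbols on a rat expression array. They stand for 10 of the 34911 genes or unnamed probes on the array and were read by 17 probes. Cultured rat bone marrow stromal cells, adherent marrow cells with the capacity to become bone, cartilage or fat cells, were isolated from tibia marrow and kept for 7 days on titanium that carried a tantalum modification (Ta, n = 3 arrays) or on titanium without it (simple Ti, here Ti, n = 3 arrays). Total RNA was labelled with Cy3 and hybridised to one-colour Agilent arrays, 1 array per culture, and the design text speaks of independent experiments within each group. The labels give no strain, sex, age or number of animals. The treatment text is the same for all 6 samples and names only the Ta-modified surface, so each sample was placed by its title and culture label. The question the comparison addresses is which transcripts differ between cells on the Ta surface and cells on the Ti surface.

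Wnt proteins are secreted ligands that bind Frizzled receptors together with the co-receptors Lrp5 and Lrp6, which stabilises beta-catenin and turns on its target genes. R-spondins (Rspo genes) bind Lgr receptors and hold back the ubiquitin ligases Znrf3 and Rnf43 that remove Frizzled from the cell surface, so they strengthen the response to Wnt. Secreted frizzled-related proteins (Sfrp genes and Frzb, also called Sfrp3) and Wif1 bind Wnt proteins outside the cell, and most dickkopf proteins (Dkk genes) block the co-receptors. In bone marrow, Wnt signalling is known for favouring osteoblast over fat cell formation.

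Signal is given as the log2 processed intensity after scaling the arrays to the same 75th percentile, and differences are Ta minus Ti. On each array 62.7% to 65.9% of spots were well above background, with a 75th percentile of 1848 to 2388. Of 15 stromal cell markers, 14 were well above background on every array and Lepr on none. The first principal component of all tested genes held 67.5% of the variance, with scores of 6.78, 43.6 and 57.5 on the Ta arrays against -40.6, -22.8 and -44.5 on the Ti arrays, so Ta replicate 1 lay nearest to the Ti arrays. A single slide, scanned once, held the 3 Ta arrays and Ti replicate 1 in row 1 and Ti replicates 2 and 3 in row 2. Ti replicate 2 was marked for evaluation by the scanner software. With 3 arrays per group, their number limits the precision.

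Rspo3 and Wif1 carried the largest differences in each direction among the modulators. Rspo3 and Rspo1 are the R-spondins among the 10 genes that were well above background, so the sequences behind these readings are shown first. The probes of the 2 R-spondins, 60 bases each, are printed in lower case as the array files give them, with no part singled out. They shared no stretch longer than 6 bases on the same strand. The Rspo3 probe lies at chr1:29108556-29108615 and the Rspo1 probe at chr5:144352967-144353026, both on the plus strand of rn4, the build of the array files.
Rspo3 probe: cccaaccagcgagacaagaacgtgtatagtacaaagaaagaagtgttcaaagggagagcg
Rspo1 probe: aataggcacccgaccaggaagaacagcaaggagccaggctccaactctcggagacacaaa

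The start regions of the 3 genes that passed the test, from 250 bases before to 50 bases after the annotated start, are shown because Rspo3 and Sfrp2 rose and Wif1 fell. They come from RefSeq for the GRCr8 assembly, which held such a region for 5 of the 10 genes (Rspo1, Rspo3, Sfrp2, Wif1 and Frzb). All 3 lie on the plus strand, Rspo3 at chr1:30112279-30112578, Sfrp2 at chr2:171387286-171387585 and Wif1 at chr7:58433329-58433628. Capitals mark CpG dinucleotides.
Rspo3 start region: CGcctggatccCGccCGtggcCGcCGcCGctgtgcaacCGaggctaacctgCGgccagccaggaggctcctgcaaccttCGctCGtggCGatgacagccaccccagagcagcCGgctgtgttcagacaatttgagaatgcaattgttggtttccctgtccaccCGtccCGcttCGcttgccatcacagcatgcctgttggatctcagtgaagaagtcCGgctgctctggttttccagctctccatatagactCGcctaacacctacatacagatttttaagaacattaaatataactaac
Sfrp2 start region: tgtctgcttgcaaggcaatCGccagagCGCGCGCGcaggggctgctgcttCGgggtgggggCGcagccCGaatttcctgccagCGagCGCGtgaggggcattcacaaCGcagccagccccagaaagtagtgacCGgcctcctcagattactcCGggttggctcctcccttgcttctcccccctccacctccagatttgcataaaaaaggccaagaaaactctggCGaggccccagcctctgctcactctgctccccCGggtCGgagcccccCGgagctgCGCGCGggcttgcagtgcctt
Wif1 start region: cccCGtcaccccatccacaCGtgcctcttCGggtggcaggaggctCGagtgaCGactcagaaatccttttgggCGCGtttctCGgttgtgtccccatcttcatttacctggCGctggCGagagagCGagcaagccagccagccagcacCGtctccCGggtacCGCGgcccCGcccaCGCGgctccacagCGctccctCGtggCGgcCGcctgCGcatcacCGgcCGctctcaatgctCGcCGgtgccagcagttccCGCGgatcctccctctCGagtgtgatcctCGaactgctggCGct

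The Wif1 region held 32 CpG and 67% G and C, the Sfrp2 region 21 CpG and 65%, and the Rspo3 region 17 CpG and 55.3%. Over all 27457 RefSeq start regions the median was 7 CpG (quartiles 3 and 20) and 52.3% G and C (quartiles 45 and 61). Wif1 and Sfrp2 thus lay above the upper quartile in both measures, and Rspo3 lay between the quartiles in both. Rspo1 held 31 CpG and Frzb 4. Motifs were searched on both strands: the letters CTTTGAA and CTTTGAT and CTTTGTA and CTTTGTT for TCF/LEF factors, the DNA-binding partners of beta-catenin, TGANTCA for AP-1, TGTGGT for RUNX and TATAAA for the TATA box. None of these letters occurred in the 5 regions, and among all 27457 regions they occurred in 16.8%, 7.33%, 16.9% and 14.3%. This says only that these letters are not in these windows.

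Of the 10 modulators, 8 passed the filter on dim probes, which asks for 3 arrays well above background, and were tested with limma across 19601 genes. Rspo3 and Sfrp2 rose on Ta, Wif1 fell, and Rspo1, Sfrp1, Sfrp4, Frzb and Dkk3 did not pass an adjusted p of 0.05. These 3 of 8 genes (37.5%) stand beside 4.12% of all tested genes (2.65% higher and 1.47% lower on Ta, 520 and 288 genes, or 415 and 361 with median scaling). The median difference of the 8 genes was -0.02, against 0.03 for all tested genes. At an unadjusted p under 0.05 there were 5 of the 8 and 30% of all tested genes, and of 11 tested probes of the modulators 3 passed after adjustment (27.3%, beside 4.31% of all probes). In 5 of the 8 the Ta and Ti arrays did not overlap, as in 35.8% of all tested genes. The genes were picked with earlier results of these data known, so their share past the test is a description.

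**Figure D1:**
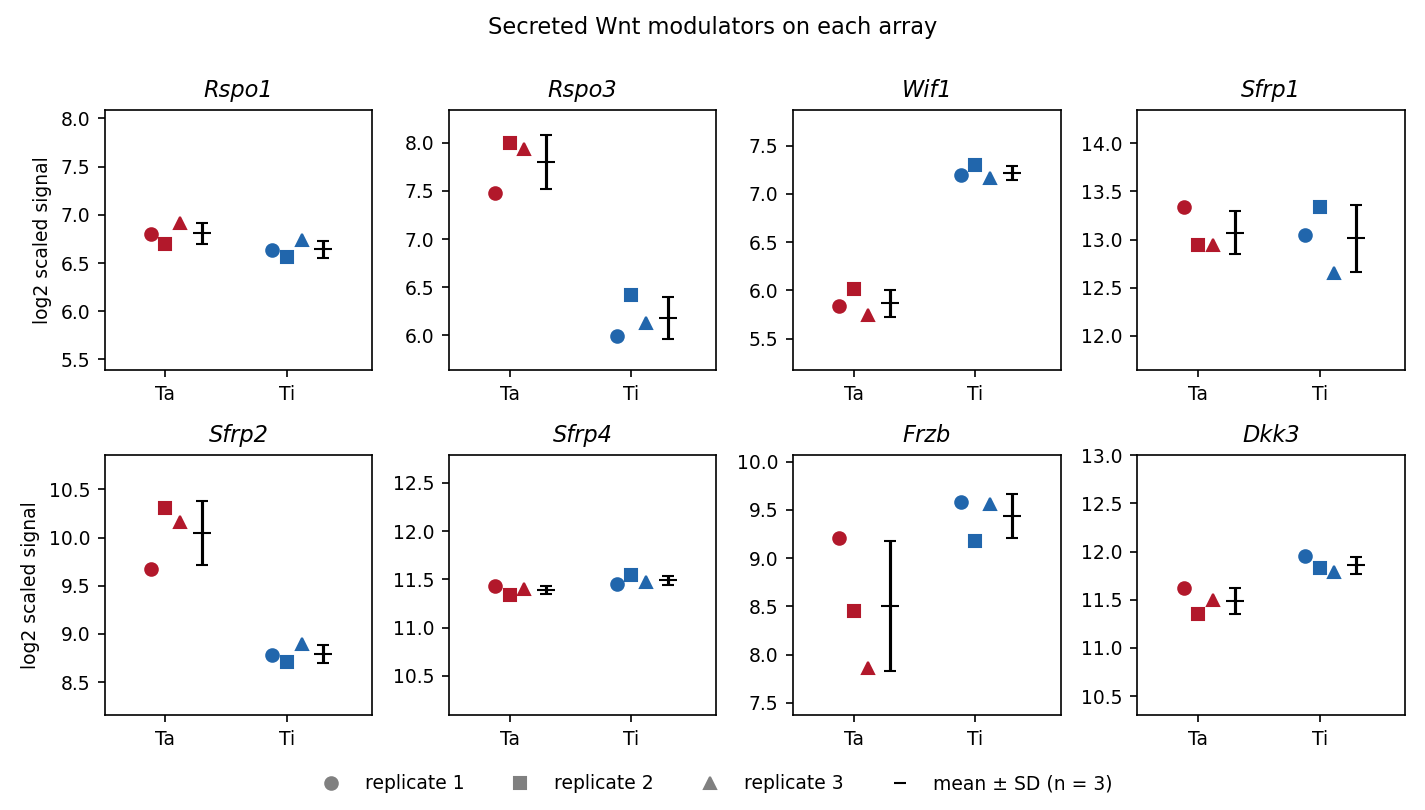
Log2 scaled signal (y axis, each panel spanning the same range) of the 8 tested modulators on the 3 Ta arrays (red) and the 3 Ti arrays (blue). Symbols mark replicates and black bars the mean ± SD (n = 3); the groups stand apart for Rspo3, Sfrp2, Wif1, Sfrp4 and Dkk3 and overlap for Rspo1, Sfrp1 and Frzb.

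Among the R-spondins, the agonists of the pathway, Rspo3 had log2 signals of 7.48, 7.99 and 7.93 on the Ta arrays, against 5.99, 6.42 and 6.13 on the Ti arrays. On the linear scale these were scaled signals of 178, 254 and 244 on Ta and 63.6, 85.4 and 69.9 on Ti. Every Ta array was above every Ti array, with Ta replicate 1 the lowest of the Ta group. Rspo3 rose by 1.62 ± 0.18 (log2, SE, 95% interval 1.19 to 2.05), which is 3.08-fold, with an adjusted p of 0.0397 from limma. This placed it at rank 40 of the 19601 genes by p. Its 1 probe was well above background on all 6 arrays. Under normexp background correction in place of the scanner's own, Rspo3 differed by 1.12 (adjusted p = 0.0127).

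Rspo1, the other R-spondin among the modulators with a usable signal, had 6.80, 6.70 and 6.92 on Ta and 6.64, 6.56 and 6.74 on Ti. The groups overlapped, since the lowest Ta array was below the highest Ti array. The difference of 0.16 ± 0.10 had an interval of -0.07 to 0.39 and an adjusted p of 0.306. Rspo2 was read by 3 probes, and each stayed short of well above background on all 6 arrays. Their log2 signals ran between 1.12 and 2.96 on Ta and between 1.13 and 1.64 on Ti, and even the dimmest probes well above background had 3.37 to 3.68 on these arrays. Rspo2 was therefore not tested.

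Among the proteins that bind Wnt outside the cell, Sfrp2 had 9.67, 10.31 and 10.16 on the Ta arrays, against 8.78, 8.71 and 8.89 on the Ti arrays. Every Ta array was above every Ti array, and Ta replicate 1 was again the lowest of its group. Sfrp2 rose by 1.26 ± 0.17 (interval 0.83 to 1.68), which is 2.39-fold, with an adjusted p of 0.0397. The Ta arrays spread more than the Ti arrays, with SDs of 0.33 on Ta and 0.09 on Ti. Its probe lies at chr2:175486729-175486788 on the plus strand of rn4.

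Wif1, named as an inhibitory factor of Wnt, went the other way, with 5.83, 6.02 and 5.75 on the Ta arrays against 7.20, 7.30 and 7.16 on the Ti arrays. The linear scaled signals were 57.0, 64.7 and 53.6 on Ta, against 147, 158 and 143 on Ti. The groups lay far apart relative to their spread, with SDs of 0.14 on Ta and 0.07 on Ti. Wif1 fell by 1.36 on the log2 scale (SE 0.10, interval -1.60 to -1.11), so that the Ti signal was 2.56 times that on Ta, with an adjusted p of 0.0264. It ranked 4 of the 19601 genes by p. With normexp background correction in place of the scanner's own, the difference was -0.76 (adjusted p = 0.0102). The probe lies at chr7:60399964-60400023 on the plus strand of rn4.

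Frzb, a frizzled-related protein first described in cartilage, had 9.21, 8.45 and 7.86 on Ta and 9.58, 9.17 and 9.56 on Ti. Ta replicate 1 lay above Ti replicate 2, so the groups overlapped, and the Ta arrays had an SD of 0.68 against 0.23 on Ti. The difference of -0.93 (SE 0.34, interval -1.75 to -0.11) had an adjusted p of 0.13 and did not pass. Without Ta replicate 1 it was -1.28 with an adjusted p of 0.0248, in a fit that called 3219 genes or 16.4% of all. Without Ta replicate 3 it was -0.61 with an adjusted p of 0.276.

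The Ta and Ti arrays of Sfrp1 were intermixed, at 13.34, 12.94 and 12.94 on Ta and 13.05, 13.34 and 12.65 on Ti. The difference was 0.06 ± 0.20 (interval -0.44 to 0.55, adjusted p = 0.87), and a second probe gave 0.16. The sign of the first probe turned without Ta replicate 1 (-0.07) or Ti replicate 3 (-0.12). Sfrp4 had 11.43, 11.34 and 11.40 on Ta and 11.46, 11.54 and 11.47 on Ti. All Ta arrays were below all Ti arrays, but by little: the difference was -0.10 (SE 0.07, interval -0.28 to 0.08, adjusted p = 0.413). A second Sfrp4 probe also had every Ta array below every Ti array (-0.20, adjusted p = 0.169 over probes). A further probe, which maps elsewhere on the same rn4 chromosome at chr17:53033175-53033234, was well above background on no array.

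The dickkopf family gave 1 tested gene. Dkk3, a divergent member whose action on Wnt differs between settings, had 11.62, 11.35 and 11.50 on Ta against 11.96, 11.83 and 11.79 on Ti. Every Ta array was below every Ti array, and the difference of -0.37 (SE 0.10, interval -0.62 to -0.12) had an adjusted p of 0.08. The 2 other Dkk3 probes lie farther along the same transcript. The probe at position 4121 was well above background on 4 arrays and gave 0.23 ± 0.19, and the probe at position 4825 was well above background on none. With the mean of the tested probes in place of the brightest, Dkk3 differed by -0.07. Dkk2, an antagonist of the co-receptors, had 1 probe that no array measured well above background, with 1.43 to 1.63 on Ta and 1.45 to 1.76 on Ti. In rn4 the Sfrp1 probe lies at chr16:73028112-73028171, the Sfrp4 probe at chr17:53121979-53122038, the Frzb probe at chr3:63350505-63350564 and the Dkk3 probe at chr1:169925984-169926043, all on the minus strand, and the Dkk2 probe at chr2:229633164-229633223 on the plus strand. Exon and UTR annotation was not used here.

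**Figure D2:**
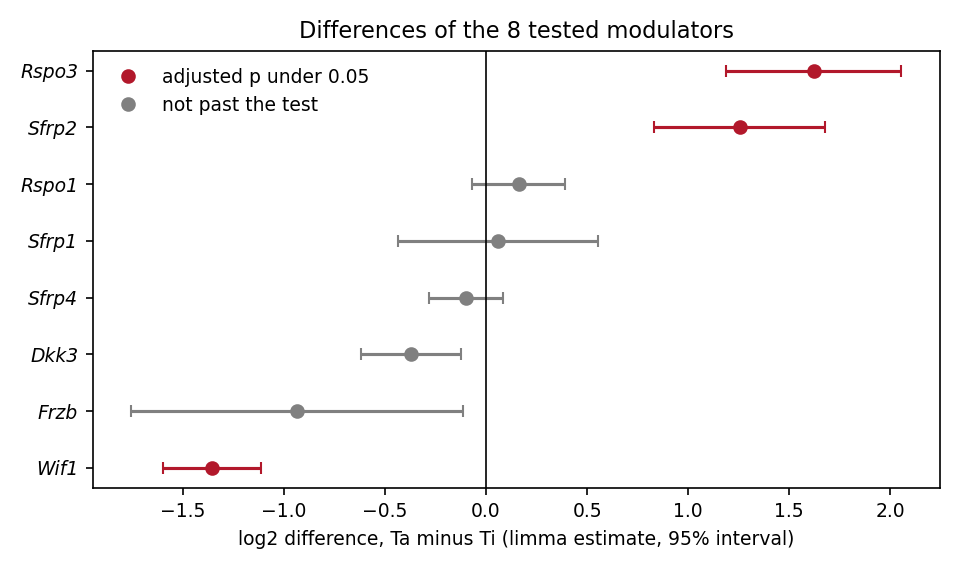
Limma estimates (points) and 95% intervals (bars) of the log2 difference, Ta minus Ti, of the 8 tested modulators; red marks an adjusted p under 0.05. The intervals of Rspo3 (1.19 to 2.05) and Sfrp2 (0.83 to 1.68) lie right of 0 and that of Wif1 (-1.60 to -1.11) left of it; Dkk3 and Frzb have intervals below 0 but did not pass after adjustment over all genes.

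An exact two-sided permutation test over the 3 and 3 arrays gave p = 0.1 for Rspo3, Sfrp2, Wif1, Sfrp4 and Dkk3, the smallest value this design allows, 0.2 for Rspo1 and Frzb, and 1 for Sfrp1. Limma draws each gene's own spread toward a value shared by all genes. It no longer called Rspo3, Sfrp2 or Wif1 when certain single arrays were left out. Leaving out Ta replicate 2 or 3, or else Ti replicate 1 or 3, it called 0 genes (3819, 3902, 4467 and 3818 at an unadjusted p under 0.05) and none of the 8 modulators (4 each at an unadjusted p under 0.05). Without single arrays the difference itself ran from 1.52 to 1.78 for Rspo3, from 1.13 to 1.44 for Sfrp2 and from -1.43 to -1.30 for Wif1. Within the first slide row, where Ti replicate 1 is the only Ti array beside the Ta arrays, the differences were 1.81, 1.27 and -1.34, with adjusted p of 0.171, 0.191 and 0.162. Rspo3, Sfrp2 and Wif1 each passed in 11 of the 18 alternative settings, and their sign was the same in all 18. That sign could not turn when 1 array was left out, since their Ta and Ti arrays did not overlap. Other filters, the replicate block and trend settings left these differences as they were, so the shared sign is a description. Dkk3 passed in 4 of the 18 and Frzb in 2, and Rspo1, Sfrp1 and Sfrp4 in 0.

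**Figure D3:**
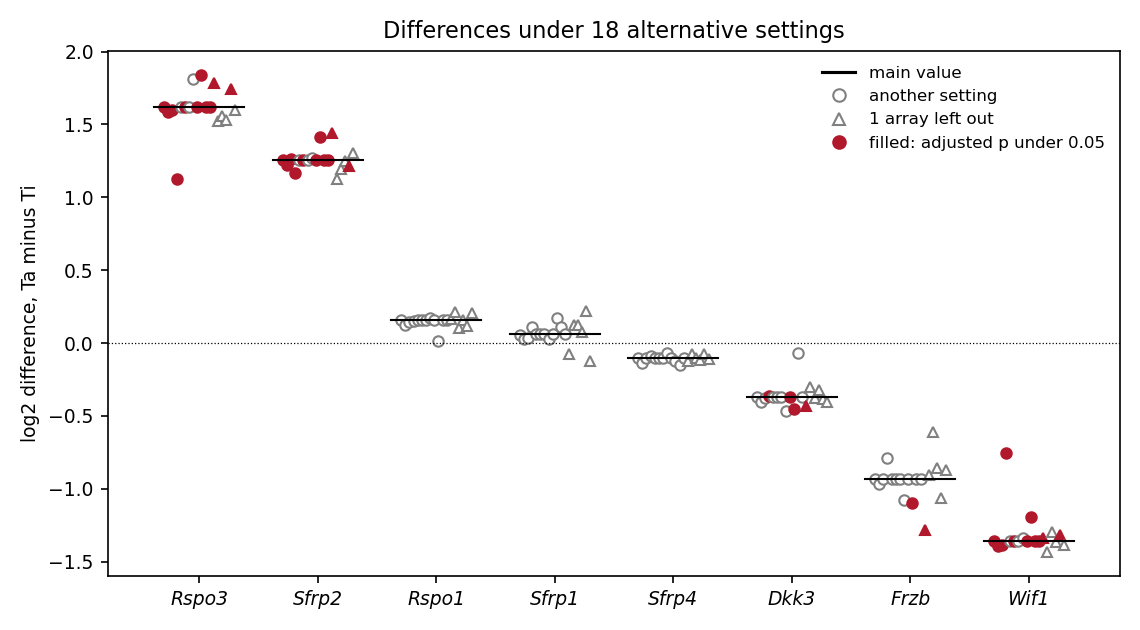
Log2 differences, Ta minus Ti, of the 8 tested modulators under 18 alternative settings. Circles are other scalings, filters and fits, triangles leave out 1 array, filled symbols have an adjusted p under 0.05 and the line is the reported value. Rspo3 and Sfrp2 stay above 0 and Wif1, Frzb, Dkk3 and Sfrp4 below 0, while Sfrp1 has values on both sides.

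Over the 6 arrays, Rspo3 and Sfrp2 had the most alike profiles of the 3 genes that passed, with a root mean square difference of 0.25 on the log2 scale after centring each profile. Wif1 was nearest to Frzb among the other modulators (0.47). Of 12970 genes with a symbol and well above background on all arrays, Clspn, a checkpoint protein of DNA replication, had the profile closest to Rspo3 (0.06). It was followed by Sod2, the mitochondrial superoxide dismutase, and Wfdc18l1 (0.10 each). These 3 genes had differences of 1.71 ± 0.19, 1.47 ± 0.19 and 1.66 ± 0.16. Closest to Sfrp2 were the lipid transporter gene Abca7 (0.09), the interleukin 7 receptor gene Il7r and the betaine transporter gene Slc6a12 (0.11 each), with differences of 1.20 ± 0.23, 1.16 ± 0.16 and 1.09 ± 0.22. Closest to Wif1 were the muscle transcription factor gene Myod1 (0.17), Enox1 (0.19) and the matrix protein gene Fbln2 (0.19), with -1.43, -1.10 and -1.06. These likenesses are descriptions over 6 arrays that share 1 slide.

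Of 65 other tested Wnt genes 4 passed (6.15%, beside 4.12% of all tested genes), all of them lower on Ta. Among 13 further secreted modulators, 6 were tested and 0 passed, with a median of 0.08. The R-spondin gene Rspo4, named outside the rule, was well above background on all 6 arrays. It differed by -0.005 (SE 0.18, adjusted p = 0.987). Igfbp4, a growth factor binding protein that also holds back Wnt, differed by -0.97 (SE 0.20, adjusted p = 0.0523). Apcdd1, a membrane inhibitor of Wnt, differed by 0.61 ± 0.16 (adjusted p = 0.0747), and a second probe gave -0.41. The co-receptor antagonists Dkk1, Dkk4, Sost and Sostdc1 were well above background on no array, nor were Sfrp5, Notum and Cer1.

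Of 21 ligand genes and genes for ligand secretion, 11 were tested and 0 passed (median -0.12). Wnt5a, a ligand known mainly for signalling without beta-catenin, had the largest difference at 1.0 ± 0.22 (adjusted p = 0.058), and a second probe gave 1.31. Wnt9a differed by -0.62 (SE 0.14, adjusted p = 0.0641). Of 19 receptors and co-receptors, 16 were tested (median 0.07) and the Frizzled receptor gene Fzd6 fell by 0.41 (SE 0.08, adjusted p = 0.0487), with 4.58, 4.63 and 4.63 on Ta against 5.11, 5.01 and 4.95 on Ti.

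The receptors and ligases through which R-spondins act had 5 of 7 genes tested and 0 past the test, with a median of 0.24. Znrf3 differed by 0.29 ± 0.15 and Lgr5 by 0.24 ± 0.23, and Lgr5 was well above background on 4 of 6 arrays. Lgr4, an R-spondin receptor named outside the rule, had 10.82, 10.73 and 10.78 on Ta and 10.43, 10.65 and 10.51 on Ti, a difference of 0.24 ± 0.09 (adjusted p = 0.129). Lgr6 and Rnf43 were not tested, since they were well above background on 1 array and on none.

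Of 17 intracellular genes of the pathway, 17 were tested and 0 passed (median -0.02). Tcf7, a TCF transcription factor, differed by -0.58 (SE 0.17), but its other probes gave -0.51 and 1.02, and Tcf7l1 differed by 0.44 ± 0.11. Of 12 beta-catenin target genes, 10 were tested and 3 fell, beside 1.47% of all tested genes called lower on Ta. The median of the 10 was 0.02. Tnfrsf11b, which encodes osteoprotegerin, the decoy receptor that restrains osteoclast formation, fell by 1.73 (SE 0.31, adjusted p = 0.0457). Lbh fell by 1.22 (SE 0.20, adjusted p = 0.0438, second probe -0.60) and Ccn5 by 1.02 (SE 0.19, adjusted p = 0.0475). Axin2 and Nkd1, feedback inhibitors and widely used readouts of beta-catenin, are named outside the rule: Axin2 differed by 0.15 ± 0.08 (adjusted p = 0.283) and Nkd1 by 0.79 ± 0.16 (adjusted p = 0.0525), with 0.21 for a second Nkd1 probe. With Ta replicate 2 or 3, or Ti replicate 1 or 3, left out, none of the 65 passed (20, 18, 19 and 17 at an unadjusted p under 0.05 in limma), and without Ta replicate 1 there were 12.

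**Figure D4:**
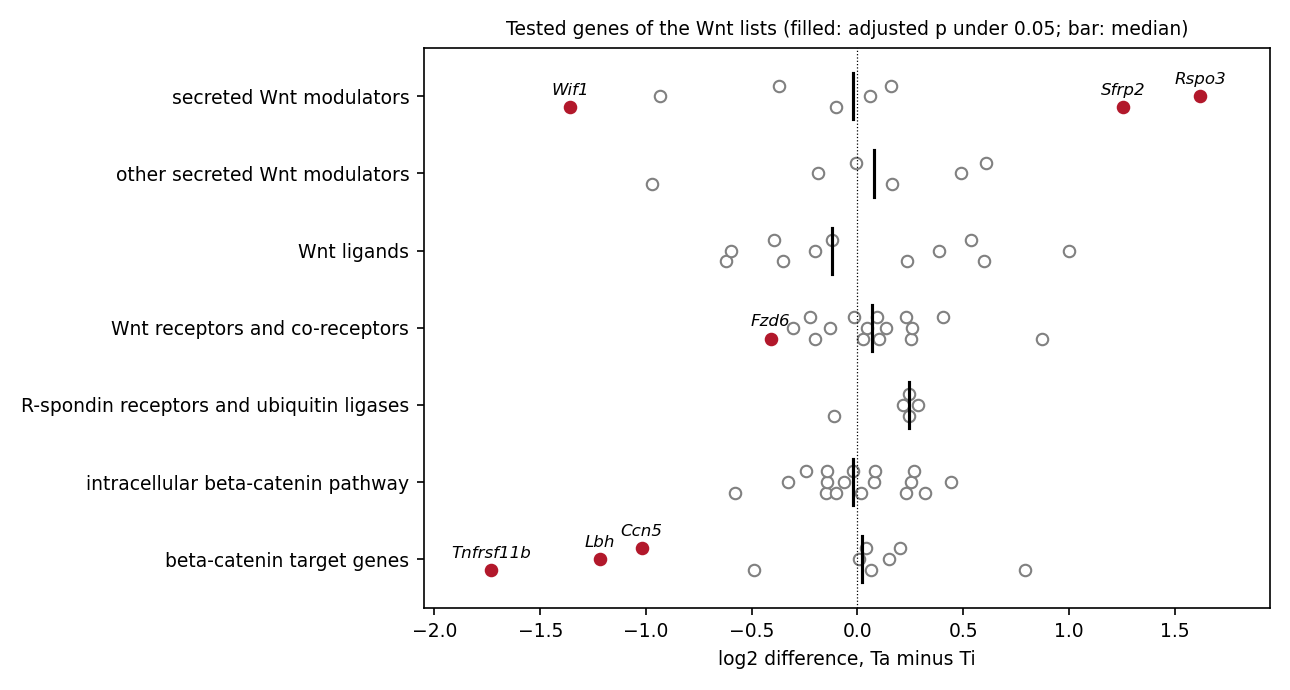
Log2 differences, Ta minus Ti, of the tested genes of 7 Wnt lists (rows); filled points passed an adjusted p of 0.05 and vertical bars are list medians, from -0.12 for ligands to 0.24 for R-spondin receptors. The 3 modulators that passed lie at 1.62, 1.26 and -1.36, and Tnfrsf11b, Lbh, Ccn5 and Fzd6 lie left of 0.

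Markers of other marrow cells were measured in the same cultures, and several differed between the surfaces beside the modulators. In bulk RNA, fewer cells of a type and less RNA per cell cannot be told apart. Beside the marker counts that follow, 2.65% of all tested genes were called higher and 1.47% lower on Ta. Of 18 macrophage markers, 17 were tested and 0 passed, with a median of -1.09, and Marco was well above background on no array. Their mean log2 signal was 10.69, 9.84 and 9.16 on the Ta arrays and 10.96, 10.92 and 11.05 on the Ti arrays, and the summed signal was 71440 to 183200 on Ta and 199900 to 258800 on Ti. The complement genes C1qc and C1qb differed by -3.08 (SE 0.77) and -2.83 (SE 0.71). Of the 17 tested, 2 had a difference above 0. Named outside the rule, Cd14 had every Ta array above every Ti array (0.34 ± 0.14, adjusted p = 0.155). Msr1, Adgre1, Itgam and Cd68 differed by 0.01, -0.15, -0.22 and -0.28. Ta replicate 1 was the Ta array nearest to Ti in the mean of the macrophage list, as on the first principal component of all tested genes. The same held for Rspo3, Sfrp2, Frzb, Dkk3 and Sfrp4, and for the means of the mast cell, neutrophil and adipocyte lists. For Wif1, Rspo1 and Sfrp1, Ta replicate 2 was the Ta array nearest to the Ti mean.

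Of 10 mast cell markers, 7 were tested and 4 fell. Cma1, a mast cell chymase, was at least 3.49-fold lower, since no Ta array measured it well above background. The bound sets the Ti mean against the dimmest well-measured signal on each Ta array. Cma1 passed the filter on dim probes through the 3 Ti arrays alone, so its place among the 4 lends no support. Kit fell by 2.56 (SE 0.49), Mcpt8 fell by 2.16 (SE 0.34, second probe -0.41) and Cpa3 fell by 1.93 (SE 0.29, measured well above background by 1 of the 3 Ta arrays, and -1.62 with the others raised to the floor). Of the 3 that did not pass, named outside the rule, Hdc, the histamine-forming enzyme, had every Ta array above every Ti array with a difference of 0.73 ± 0.16 (adjusted p = 0.0564, second probe 0.86), Fcer1a differed by -0.25 and Gata2 by -0.01. The list's mean log2 signal was 4.08 to 4.40 on Ta and 5.48 to 5.75 on Ti, and its summed signal 855.5 to 951.7 on Ta and 1370 to 2217 on Ti, and Ms4a2 was well above background on no array. Of 8 genes listed as neutrophil markers, 3 were tested and 2 rose, S100a8 by 2.95 ± 0.50 and Camp by 1.68 ± 0.30. S100a9, Elane, Ngp, Cxcr2 and Ly6g6e were well above background on no array. Whether Ly6g6e marks neutrophils was not checked here. Over the 8 genes the mean log2 signal was 3.45 to 3.88 on Ta and 2.52 to 2.97 on Ti. The sums were 281 to 636 on Ta and 96.1 to 151 on Ti. This mean includes the 5 genes that were not tested. On the Ti arrays it lay below the dimmest well-measured signals, 3.40 to 3.68.

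Among cells that stromal cells can form, the 8 adipocyte markers had 6 tested and 1 that passed. The lipoprotein lipase gene Lpl fell by 2.46 (SE 0.44). The list had a mean log2 signal of 9.25, 8.21 and 8.40 on Ta and 9.94, 9.38 and 10.21 on Ti (sums 8801 to 21730 on Ta and 31050 to 63090 on Ti). Plin1 was well above background on no array. Of 10 osteoblast markers, 6 were tested and the transcription factor gene Dlx5 fell by 0.96 (SE 0.15). In 3 of the 6, Dlx5 included, every Ta array was below every Ti array, beside 16.3% of all tested genes. The 2 with a difference above 0, named outside the rule, did not pass. For Alpl every Ta array was above every Ti array (0.49 ± 0.16, adjusted p = 0.109, second probe 0.41). For Sp7 (0.54 ± 0.33) the groups overlapped, and only 1 Ti array gave a reading well above background. The list had means of 5.69 to 6.04 on Ta and 5.76 to 5.94 on Ti. Its sums were 26360 to 34600 on Ta and 25350 to 48890 on Ti. Phex and Dmp1 were well above background on no array. Of 8 chondrocyte markers, 5 were tested and Sox5 fell by 0.59 (SE 0.10). In 4 of the 5, Sox5 included, every Ta array was below every Ti array. Sox9, named outside the rule, had every Ta array above every Ti array and did not pass (0.30 ± 0.10, adjusted p = 0.108). The other Sox9 probes gave differences below 0. The list had means of 4.37 to 4.63 on Ta and 4.89 to 5.10 on Ti. Its sums were 527.5 to 645.5 on Ta and 743 to 921 on Ti. Col9a1 and Matn1 were well above background on none. Frzb was lower on 2 of the 3 Ta arrays than on any Ti array, and a link to these cartilage and fat markers was not tested.

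Stromal markers had 14 of 15 tested, and 3 rose: Cxcl12 by 1.06 ± 0.19, Kitlg by 0.67 ± 0.13 and Thy1 by 0.67 ± 0.11. Of those that did not pass, named outside the rule, every Ta array was below every Ti array for Col3a1 (difference -0.68, adjusted p = 0.0663), Eng (-0.37, adjusted p = 0.0523) and Vim (-0.26, adjusted p = 0.171), and above for Vcam1 (0.67, adjusted p = 0.0693). Their mean log2 signal was 12.46 to 12.58 on Ta and 12.36 to 12.39 on Ti, and their summed signal 286300 to 311600 on Ta and 285400 to 301500 on Ti. The endothelial list had 7 of 8 genes tested and 0 past the test, with Tie1 at -0.99 (SE 0.43) and Pecam1 at -0.96 (SE 0.41). Tie1 was well above background on 4 of 6 arrays and differed by -0.78 with dim signals raised to the floor. Above 0 were 2 of the 7, named outside the rule. Egfl7 had every Ta array above every Ti array (0.38 ± 0.13, adjusted p = 0.115), and Vwf differed by 0.06 ± 0.11. The means of the list were 5.72 to 6.06 on Ta and 6.07 to 6.28 on Ti, its sums 2383 to 2613 on Ta and 2276 to 2438 on Ti, and Emcn was well above background on no array. The part of these cell types in the differences of the modulators was not tested.

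**Figure D5:**
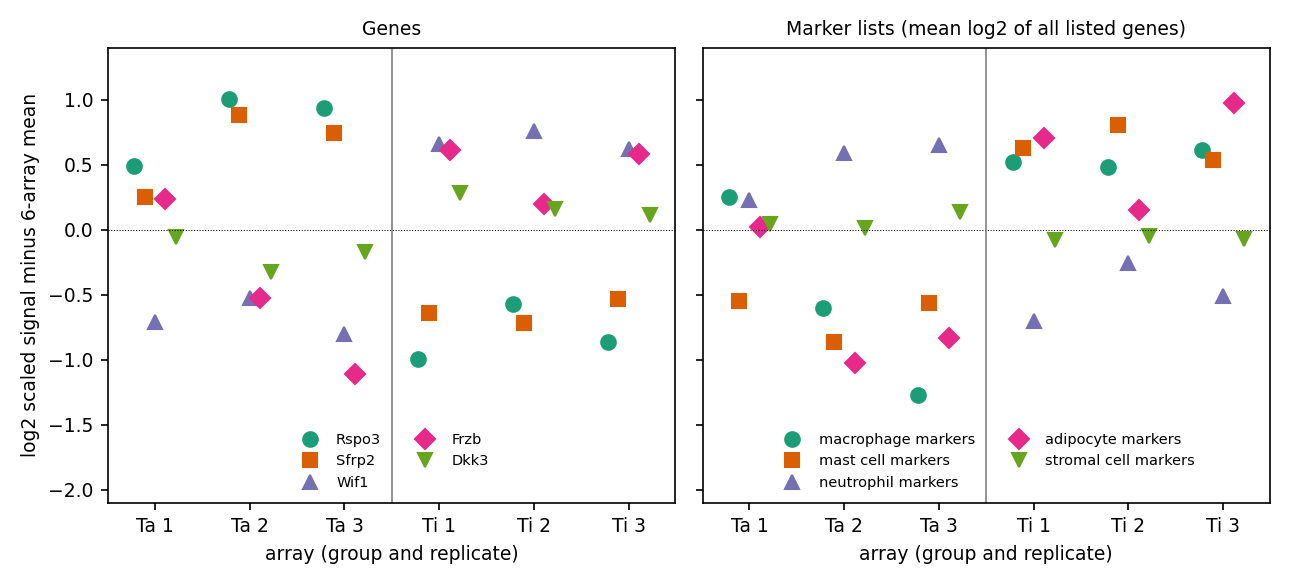
Log2 scaled signal minus its mean over the 6 arrays (y axis) on each array (x axis, Ta left and Ti right of the line) for 5 modulators (left panel) and for the mean of 5 marker lists (right panel). Ta replicate 1 is the Ta array nearest to Ti for Rspo3, Sfrp2, Frzb and Dkk3, and for the macrophage, mast cell, neutrophil and adipocyte lists. The stromal list stays within 0.2 of its mean. Each list mean also takes in signals that were not well above background.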

How the data were processed

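The authors deposited linear spot intensities of 6 one-colour arrays. Per the file headers, these processed signals were background-subtracted and detrended within each array, without scaling between arrays, and probes were placed on rn4. Agilent Feature Extraction 12.0 and limma are named in the submitters' processing notes. The deposited value table equalled the processed signal in 100% of values. Names came from the file of Ta replicate 1, since 93 differ in those of Ta replicate 2 and Ti replicate 3.

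The log2 intensity was reduced by each array's 75th percentile over 58717 non-control spots, with the mean percentile added back. Outlier spots were left out and spots of the same probe averaged, which gave 45598 probes. Probes well above background on at least 3 of 6 arrays were kept (25764, of which 25756 had a value on every array), with the brightest probe per gene, which gave 19601 genes. RefSeq (GRCr8) named 30650 probes. Groups were compared with limma 3.58.1 in R 4.3.3 (lmFit and eBayes, two-sided, tested on simulated data, Benjamini-Hochberg over all tested genes, threshold 0.05). SE is limma's moderated standard error.

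The 10 modulators and all gene lists were chosen with earlier results of these data known. Named genes are the 10 modulators, up to 4 genes per other list past the test or else the 2 with the largest absolute difference, and the 3 nearest profiles of each modulator that passed. Alternatives were other scalings, normexp (offset 50) as background correction, no or a stricter filter, the replicate number or slide row as a block, trend and robust settings, array weights, the mean of probes, a floor for dim probes, omission of each array and a threshold on the unadjusted p. Replicate numbers come from the titles; between same-numbered arrays, deviations from their group's mean had correlations of 0.06, 0.13 and -0.18 (numbers 1, 2 and 3), so the reported fit has no block. Start regions came from a RefSeq table of GRCr8.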

Additional observations from a re-analysis of the deposited data

How the results depend on the processing

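Normexp background correction gave 2602 genes called in all, against 808 in the reported fit, and 13 other Wnt genes against 4. Trend and robust settings gave 2103 and 11, and array weights (7.35 for Ta replicate 2) gave 10184 genes, 39 other Wnt genes, 5 modulators and 6 of their probes. With no filter on dim probes limma called 0 genes (5814 at an unadjusted p under 0.05) and 0 modulators, modulator probes and other Wnt genes (5, 5 and 22 unadjusted). Slide row as a block called 0 of each (3837, 4, 4 and 18 unadjusted), and it rests on Ti replicate 1 alone. The filter on all 6 arrays gave 8 other Wnt genes. An unadjusted threshold gave 5872 genes and 5 modulators. Without single arrays the counts ran from 0 to 3219 genes, 0 to 5 modulators, 0 to 5 modulator probes and 0 to 12 other Wnt genes. Median scaling split the calls into 415 higher and 361 lower on Ta, against 520 and 288 in the reported fit. Sfrp1, not called, turned to -0.07 without Ta replicate 1 and -0.12 without Ti replicate 3 (range -0.12 to 0.22 without single arrays). No other modulator changed sign in 18 alternatives. Where the Ta and Ti arrays did not overlap, leaving out 1 array could not turn the sign. The causes of these changes were not tested, and leaving out an array also leaves fewer samples.

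With the replicate block 8 genes were called, and 0 modulators, modulator probes and other Wnt genes (5, 5 and 20 at an unadjusted p under 0.05 in limma), with adjusted p of 0.0538 for Rspo3, 0.0741 for Sfrp2 and 0.0556 for Wif1. Shared numbers were not taken as pairs, as not every pair of deviations correlated above 0.1. Signal over background limits Rspo2 and Dkk2, which were not tested.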
